A study of Mus musculus with 5 samples.

Results

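The genes described here encode the proteins of the mitochondrial ribosome, the particle that translates the few messages carried by mitochondrial DNA. They were chosen by symbol, as all genes beginning with Mrpl or Mrps and a number, and 77 of the 28692 genes in the deposited matrices met that rule. All 77 had at least 20 unique molecular identifiers (UMIs, each standing for 1 captured transcript) in the cells counted. The cells were live CD45-positive white blood cells sorted from B16-F10 tumors, a mouse melanoma line, of which 500000 cells had been injected under the skin and which were taken on day 11. There were 5 libraries, 1 per treatment: the anti-PD1-IL15 protein fusion (fusion), an IL15 superagonist given with an antibody against PD-1 (combination), the superagonist alone (IL15 superagonist), the antibody alone (anti-PD1) and saline (PBS). No genotype or age is given in the labels, which place treatment after resection, and the sources used here do not say how many mice were pooled. The title of the combination library has the superagonist, while the tag beside it has plain IL15. PD-1 restrains activated T cells, and IL15 is a cytokine that sustains CD8 T and NK cells.

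Mitochondrial ribosomes have a large and a small subunit whose proteins are all made from nuclear genes and imported. Told apart here are genes with a counterpart in the bacterial ribosome, genes found only in the mitochondrial one, and Mrps36, which keeps the symbol although its protein is now counted as a subunit of the alpha-ketoglutarate dehydrogenase complex. The particle makes core subunits of the respiratory chain, so its supply is tied to oxidative metabolism, and activated T cells are known to raise mitochondrial translation as they begin to grow and divide.

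The libraries held 6015 to 8747 cell barcodes and 32832856 to 81565425 UMIs, with a median of 4279 to 7851 UMIs per barcode and the highest values in the fusion library. Pairs of libraries shared 61 to 104 barcodes. Cells were put into 12 classes by marker genes, which placed 24318 cells, or 58.9% to 81.9% of a library. Genes not used in the gates checked the labels. The check list of each class was highest in its own class, except that the CD8 T list of shared T-cell genes was higher in CD4 T cells and the cDC2 list was highest in plasmacytoid dendritic cells (pDC), so the cDC2 label is not borne out by its own list. In CD8 T cells the 5 macrophage check genes summed to 13.01 to 28.7 CPM (a gene's UMIs scaled to the total of its class in that library) and the 4 B-cell genes to 0.503 to 1.16 CPM. The 5 NK check genes, some of which cytotoxic T cells also express, summed in CD8 T cells to 1226 CPM in fusion, 1359 in combination, 1252 in IL15 superagonist and 700 in anti-PD1, against 301 CPM in PBS. The 5 neutrophil genes, which include S100a6, summed to 2349 CPM in fusion and 1461 CPM in PBS, the 4 monocyte genes to 892 and 1389 CPM, and the 4 Treg genes, which activated T cells share, to 448 and 785 CPM. Their part in the results between treatments was not tested.

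Together the 77 genes made up 1090545 of 187554291 UMIs in the classed cells, which is 0.581%, or 5815 CPM. The libraries were read from the 5' end of transcripts, 1 UMI per molecule, so levels were not divided by gene length. The median member stood at 61.8 CPM, and the highest was 64.0 times the lowest. The 8 highest, Mrpl52, Mrpl33, Mrps21, Mrps24, Mrpl30, Mrpl20, Mrps16 and Mrpl54, held 28.5% of the family's UMIs, led by Mrpl52 at 291 CPM (chr14:54426909-54429756, GRCm38, plus strand) and Mrpl33 at 283 CPM. Mrps31, Mrpl47, Mrps27 and Mrpl53 were lowest, and Mrpl53 had 4.55 CPM. The 46 members with a bacterial counterpart had a median of 72.1 CPM, and the 30 found only in mitochondria one of 37.4 CPM. The median over 50 large-subunit genes was 59.0 CPM and that over 26 small-subunit genes 65.8 CPM. By protein position Mrps18a and Mrps30 belong to the large subunit despite their symbols. Mrps6 shares exon sequence on its own strand with Slc5a3, Mrps24 with Urgcp, Mrps34 with Nme3 and Mrpl53 with a predicted gene, and 24 members overlap exons of a gene on the opposite strand, among them Mrpl9, Mrpl12, Mrpl18, Mrpl24, Mrpl44 and Mrps7. No source used here says whether counting used strand, so reads of such pairs cannot be told apart with certainty. Mrpl23, Mrpl48 and Mrps36 have annotated pseudogenes that carry their symbol, and pseudogenes under other names were not searched for.

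The summed level ordered the cell classes, with cycling CD8 T cells at the top and neutrophils at the bottom. CD8 T cells were called cycling with at least 3 UMIs from 8 cell-cycle genes and noncycling with at most 1. Cycling CD8 T cells averaged 6892 ± 215 CPM (SD, n = 5 libraries), and their lowest library, at 6536 CPM, lay above every library with at least 20 cells of the classes that hold no cycling CD8 T cells, whose highest was macrophages in fusion at 5820 CPM. Macrophages averaged 5583 ± 181 CPM and cDC1, the cross-presenting dendritic cells, 5535 ± 145 CPM (SD, n = 5 each), a gap smaller than the spread. Noncycling CD8 T cells averaged 5119 ± 395, monocytes 4755 ± 298, NK cells 4620 ± 564 and CD4 T cells 4498 ± 547 CPM (SD, n = 5 each), and these ranges overlapped. Within a library, however, noncycling CD8 T cells were above monocytes and above NK cells in 5 of 5 cases. The order of the middle classes depended on the total used. Without cytosolic ribosomal and mitochondrial DNA-encoded genes in the total, noncycling CD8 T cells were above macrophages in every library. They then had 7722 against 6529 CPM in PBS and 8189 against 6967 CPM in fusion. They were also above cDC1 in every library except IL15 superagonist (6910 against 7230 CPM). Cycling CD8 T cells stayed highest and neutrophils lowest. Regulatory T cells had a median of 5387 CPM over 4 libraries, pDC one of 5571 over 3 and B cells one of 4035 over 4. Mature dendritic cells, which carry Ccr7 and Fscn1, had 3821 CPM in IL15 superagonist, 4270 in anti-PD1 and 3590 in PBS. Neutrophils had 2409 CPM in IL15 superagonist and 2086 in anti-PD1, the other libraries holding fewer than 20 such cells.

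**Figure D1:**
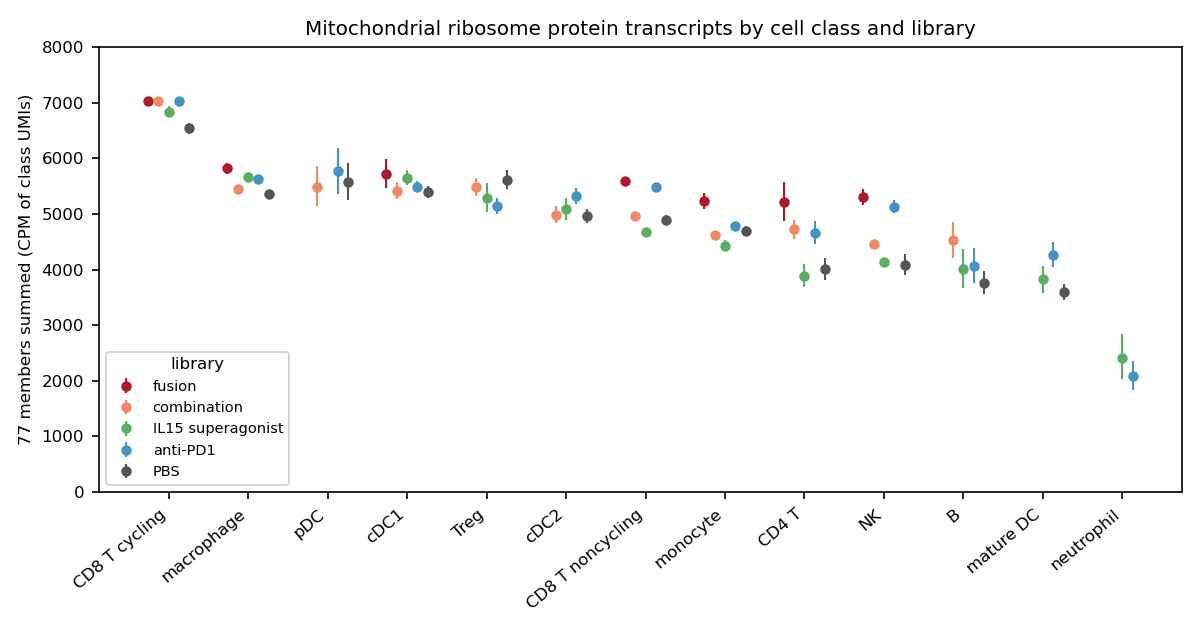
Summed level of the 77 genes (vertical axis, CPM of all UMIs of the class) in each cell class (horizontal axis, ordered by median). Each point is 1 library with its exact Poisson 95% interval, which covers counting error only. Cycling CD8 T cells sit between 6536 and 7031 CPM in all 5 libraries and neutrophils between 2086 and 2409 CPM in 2.

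Over the 7 classes with at least 20 cells in all 5 libraries the members did not share 1 profile. By median over libraries, 54 of the 77 were highest in cycling CD8 T cells, 9 in cDC1 and 8 in macrophages, while 30 were lowest in CD4 T cells, 23 in monocytes and 16 in NK cells. The highest class exceeded the lowest by 2.12-fold for the median member. How all genes split over these classes, and how wide their spans are, was not computed, so these counts are not shown to be particular to the family. Mrps21, the third most abundant, was the most even at 1.32-fold, with a median of 219 CPM in cycling CD8 T cells and 167 CPM in NK cells. Mrps27 had the widest span at 5.11-fold, but at a low level, with 11.7 CPM in cDC1 and 2.28 CPM in CD4 T cells. Mrps6, the counterpart of bacterial S6, spanned 4.83-fold, with 115 CPM in cycling CD8 T cells and 23.8 in monocytes. Mrpl44, which carries an RNase III-like fold, followed with 31.4 CPM in cycling CD8 T cells and 7.64 in monocytes. These extremes were picked after their values were seen.

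**Figure D2:**
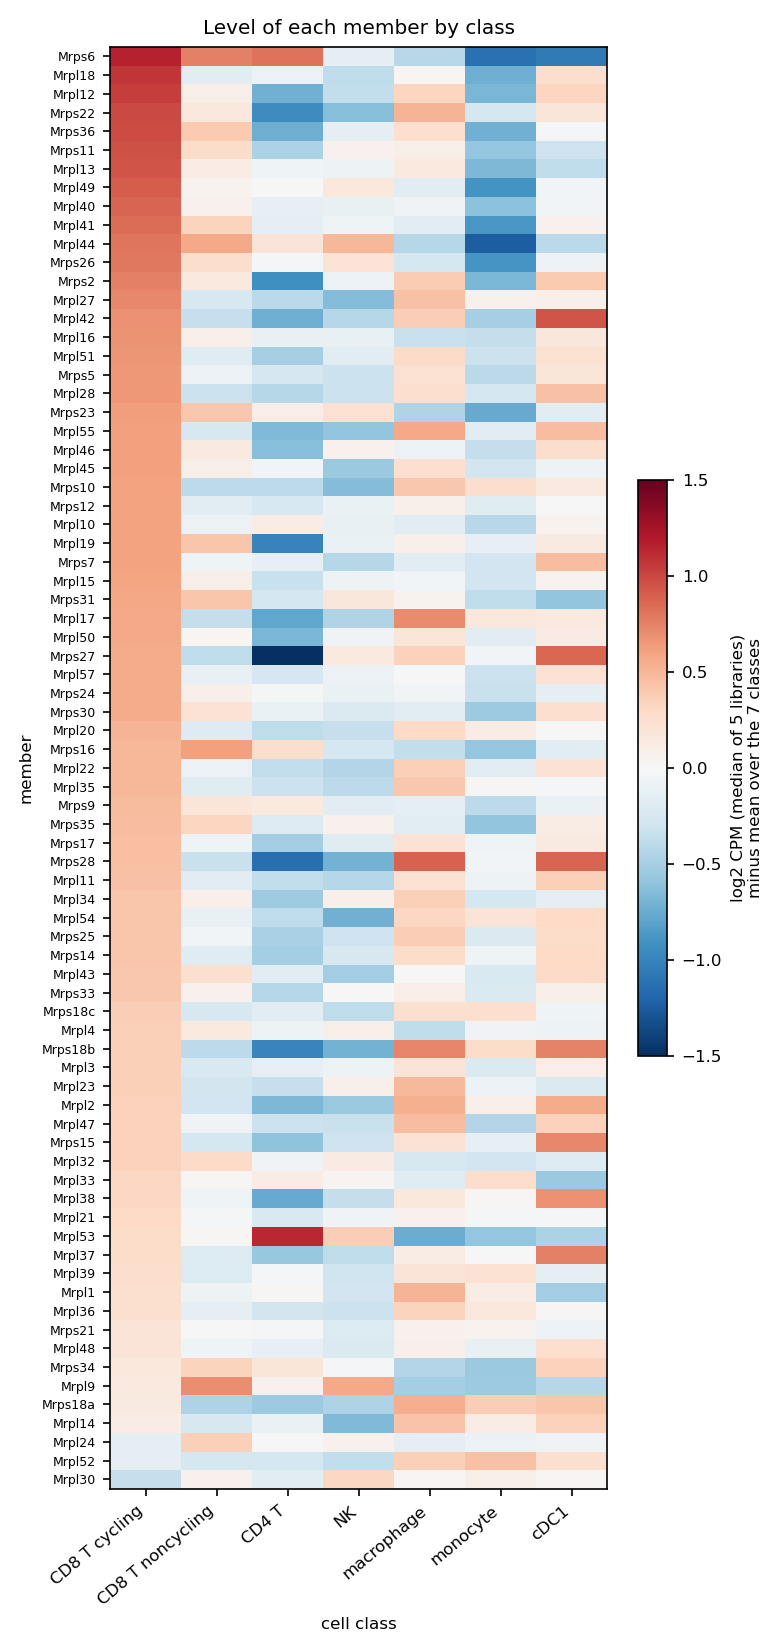
Each row is 1 of the 77 genes and each column 1 cell class. The colour gives the log2 of the median CPM over 5 libraries minus the row's mean over the 7 classes, so red is above that gene's own average. Most rows are red in cycling CD8 T cells, whereas Mrpl24, Mrpl52 and Mrpl30 at the bottom are not.

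Cycling CD8 T cells carried more transcripts of most members than noncycling CD8 T cells of the same tumors. Of 77 members tested, 46 rose and 6 fell, where 16.7% of all 11548 genes rose and 30.0% fell. The median log2 fold change was 0.34 over the members and -0.17 over all genes. This test was edgeR's quasi-likelihood F-test on UMIs summed per class and library, with the library as a block and Benjamini-Hochberg adjustment over all genes at 0.05. Shifts that a library shares over its classes are taken up by the block. The p-values of this test therefore rest on the spread left after that, estimated over the 8 classes fitted together. That spread is how far differences between classes vary among libraries, which differ in treatment. Of 26 small-subunit genes 19 rose and 2 fell, and of 50 large-subunit genes 26 rose and 4 fell. The cycling cells were also deeper, with a median of 10154 to 14721 UMIs per cell, against 4318 to 5846 in noncycling cells. With every cell thinned to 2000 UMIs, 31 members rose and 4 fell. Classes and cycling calls were kept from full depth, so thinning does not undo the selection of deeper cells as cycling. The share of all genes called in the thinned fit was not computed.

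Mrpl18 moved most. It encodes uL18m, whose bacterial counterpart binds the smallest ribosomal RNA. It had 236 CPM in fusion, 235 in combination, 213 in IL15 superagonist, 262 in anti-PD1 and 237 in PBS in cycling cells, against 111, 100.5, 82.5, 110.1 and 89.7 CPM in noncycling cells of those libraries in that order. The groups were far apart in every library, and the log2 fold change was 1.10 (SE 0.09, edgeR adjusted p = 3.1e-11). Mrpl42, found only in mitochondria, had 180.2, 175, 159, 165 and 141 CPM in cycling cells, against 103, 80.9, 73.9, 89.6 and 63.0 in noncycling cells in the same order of libraries. Fusion was highest and PBS lowest on both sides, and the log2 fold change was 0.84 (SE 0.11, edgeR adjusted p = 1.59e-07). Mrpl28 (bL28m) had 111, 104, 103, 106 and 111 CPM in cycling cells, against 61.2, 51.4, 52.5, 53.8 and 55.8 in noncycling cells. Its levels hardly varied among libraries, and the log2 fold change was 0.80 (SE 0.10, edgeR adjusted p = 6.38e-08). Mrpl12, the stalk protein that recruits translation factors and that in human cells also binds the mitochondrial RNA polymerase, had 168, 182, 176, 166 and 163 CPM in cycling cells, against 99.2, 87.2, 77.8, 102 and 86.3 in noncycling cells. It rose by 0.76 on the log2 scale (SE 0.11, edgeR adjusted p = 5.15e-07). The stalk base rose too, with Mrpl10 at 0.39 and Mrpl11 at 0.43 on the log2 scale, as did Mrps12 of the decoding centre at 0.53 and Mrps7 of the subunit head at 0.43 (edgeR adjusted p at most 0.00478). The 3 vertebrate copies of bacterial S18, Mrps18a, Mrps18b and Mrps18c, rose by 0.39, 0.52 and 0.33.

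The 6 members that fell were Mrpl9, Mrpl24, Mrpl30, Mrpl52, Mrps16 and Mrps34. Mrpl52 barely passed (log2 fold change -0.23, edgeR adjusted p = 0.0473), with CPM lower in cycling cells of 3 libraries and higher in 2. Its median over libraries was higher in cycling cells, at 275 CPM against 253 CPM. Mrps34 was lower in 4 of 5 libraries. Mrpl24 (uL24m), an early-binding protein of the bacterial large subunit, had 85.0, 73.1, 75.9, 65.1 and 54.7 CPM in cycling cells, against 106, 105, 101, 103 and 82.2 in noncycling cells, with libraries in the order fusion, combination, IL15 superagonist, anti-PD1 and PBS. It was lower in cycling cells of all 5 libraries, by 0.65 on the log2 scale (log2 fold change -0.65, SE 0.11, edgeR adjusted p = 8.35e-06). Mrpl9 (bL9m) had 55.8, 50.8, 57.6, 46.4 and 39.5 CPM in cycling cells, against 79.6, 71.7, 74.2, 75.6 and 49.98 in noncycling cells, a log2 fold change of -0.65 (SE 0.10, edgeR adjusted p = 1.4e-06). Mrpl30 (uL30m) had 200.2, 135, 131, 144 and 121 CPM in cycling cells, against 219, 189, 179.5, 169 and 125 in noncycling cells, a log2 fold change of -0.43 (SE 0.11, edgeR adjusted p = 0.0014). Its difference was small in PBS and fusion and larger in the other libraries. Mrps16 (bS16m) had 236, 184, 163, 194 and 152 CPM in cycling cells, against 256, 199.7, 177, 207 and 159 in noncycling cells. Its log2 fold change of -0.27 (SE 0.10, edgeR adjusted p = 0.0294) lost the call in 10 refits, for example at adjusted p = 0.309 with DESeq2's size factors.

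**Figure D3:**
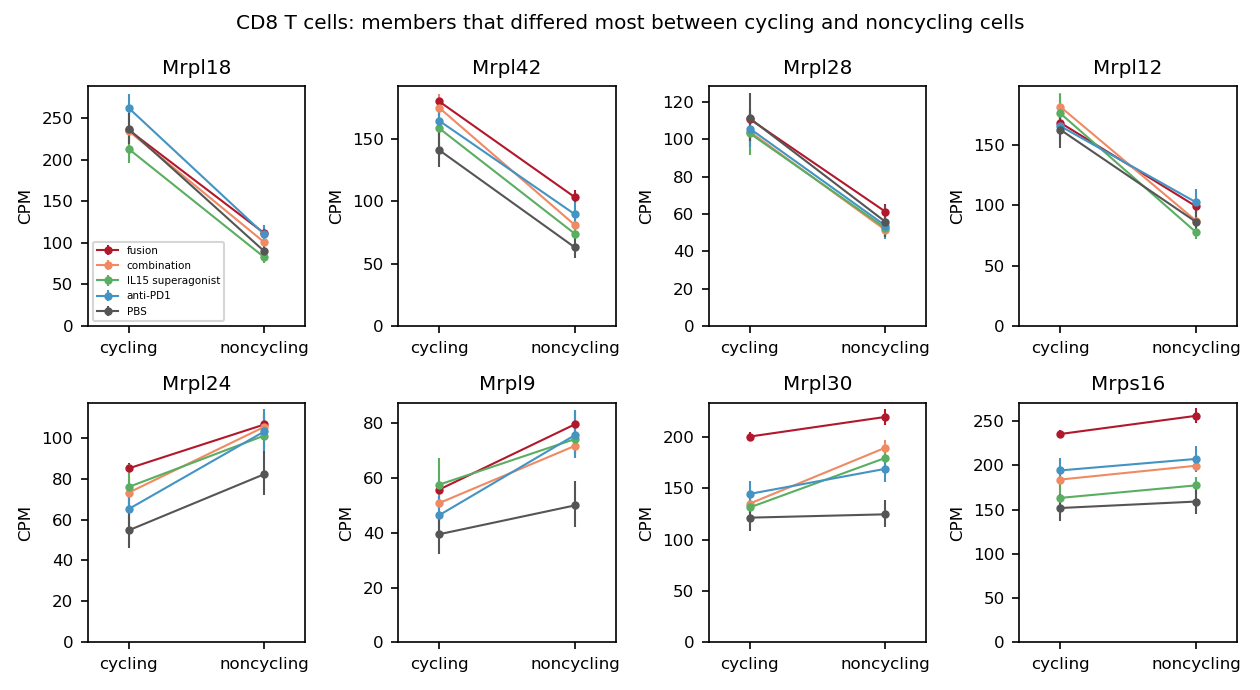
CPM (vertical axes) in cycling and noncycling CD8 T cells for the 4 genes that rose most and the 4 that fell most in all 5 libraries. Each line is 1 library, with exact Poisson 95% intervals. The upper 4 are higher and the lower 4 lower in cycling cells of every library.

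Other gene lists moved in their own ways in the same comparison. Of 6 further mitochondrial ribosome genes with other symbols 4 rose, and of 28 genes of mitochondrial protein import 16 rose. Of 76 nuclear genes of the respiratory chain and ATP synthase 30 rose and 2 fell, with a median log2 fold change of 0.15. Of 80 cytosolic ribosomal protein genes 3 rose and 45 fell, with a median of -0.28. In the remaining lists, of 29 assembly genes 8 rose and 6 fell (median 0.08), of 12 translation factors 3 rose and 1 fell, of 16 mitochondrial tRNA synthetases 1 rose and 2 fell, and of 13 mitochondrial DNA-encoded mRNAs 1 fell. C1qbp, a matrix protein needed for mitochondrial ribosome assembly, rose by 0.70 (SE 0.12, edgeR adjusted p = 1.52e-05). Tufm, the mitochondrial elongation factor, had a log2 fold change of 0.19 (adjusted p = 0.196), Tfam, which packages and transcribes mitochondrial DNA, one of 0.14 (adjusted p = 0.423), Polrmt, the mitochondrial RNA polymerase, one of 0.19 (adjusted p = 0.489) and Myc one of 0.28 (adjusted p = 0.334), none past edgeR's threshold.

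The sequence before the start site was read for 68 members that matched RefSeq's promoter table (GRCm38.p6), as 74 windows of 300 bases each, 250 before and 50 after a start. Windows were searched on both strands for CCGGAAG (ETS factors), AAGATGGCG (YY1), GGGCGG (Sp factors), GCGCA and GCGC with 1 base of any kind between them (NRF1), and ACTACA and TCCCA with 2 bases of any kind between them (ZNF143), the last added after the sequences were seen. The stretches below are the 100 bases before the start of genes named above, with any of the ETS, NRF1, YY1 and ZNF143 letters in capitals, on the coding strand.
The first 3 rose in cycling CD8 T cells:
Mrpl42 (chr10:95501950-95502049, minus strand): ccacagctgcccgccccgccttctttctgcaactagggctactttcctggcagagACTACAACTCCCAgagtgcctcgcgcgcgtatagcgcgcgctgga
Mrpl28 (chr17:26123400-26123499, plus strand): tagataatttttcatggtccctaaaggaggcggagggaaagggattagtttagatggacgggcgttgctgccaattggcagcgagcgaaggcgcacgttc
Mrpl12 (chr11:120484513-120484612, plus strand): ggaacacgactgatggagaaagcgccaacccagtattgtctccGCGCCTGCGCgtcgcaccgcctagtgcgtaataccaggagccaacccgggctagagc
The next 3 fell:
Mrpl24 (chr3:87919406-87919505, plus strand): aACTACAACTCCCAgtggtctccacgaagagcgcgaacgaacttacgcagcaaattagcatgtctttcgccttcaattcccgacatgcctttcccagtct
Mrpl9 (chr3:94443218-94443317, plus strand): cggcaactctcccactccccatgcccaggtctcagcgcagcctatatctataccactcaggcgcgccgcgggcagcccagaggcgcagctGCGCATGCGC
Mrpl30 (chr1:37890377-37890476, plus strand): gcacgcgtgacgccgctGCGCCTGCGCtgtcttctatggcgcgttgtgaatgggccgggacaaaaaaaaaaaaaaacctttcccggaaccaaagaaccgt
The last 2 are among the most abundant members:
Mrpl52 (chr14:54426809-54426908, plus strand): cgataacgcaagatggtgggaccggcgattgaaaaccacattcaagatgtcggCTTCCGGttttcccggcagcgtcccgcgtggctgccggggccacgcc
Mrps21 (chr3:95871520-95871619, minus strand): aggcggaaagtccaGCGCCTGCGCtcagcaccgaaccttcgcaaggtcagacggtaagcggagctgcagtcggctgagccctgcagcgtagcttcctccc

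The ZNF143 letters stand before Mrpl42, which rose, and before Mrpl24, which fell, and the NRF1 letters before Mrpl12, Mrpl9 and Mrpl30. Mrpl28 has none of them in the stretch shown. The ETS letters were in 33.8% of the members' windows, in 8.86% of all 32851 windows and in 19.3% of those of genes with at least 500 UMIs here. The NRF1 letters were in 17.6%, 4.603% and 10.7% of the same 3 sets, the YY1 letters in 10.8%, 1.403% and 3.40%, the ZNF143 letters in 6.76%, 1.47% and 3.28%, and the Sp letters in 52.7%, 35.7% and 63.4%. In other lists of housekeeping genes the shares differed by motif. In windows of cytosolic ribosomal genes the ETS letters were in 35.7%, the NRF1 letters in 7.14% and the ZNF143 letters in 2.86%. In windows of nuclear respiratory chain genes these letters were in 23.5%, 26.5% and 10.3%. The YY1 letters were in 8.57% of the cytosolic ribosomal and 10.3% of the respiratory chain windows, and the Sp letters in 61.4% and 38.2%. Of members with a match in the table, the ETS letters were in 15 of 42 that rose in cycling cells, 2 of 5 that fell and 8 of 21 not called. The YY1 letters were in 7 of 42, 0 of 5 and 1 of 21 of these, and the Sp letters in 26, 1 and 7. In the same order the NRF1 letters were in 5, 2 and 6, and the ZNF143 letters in 2, 1 and 2. These splits were not tested. A match is a run of letters and no evidence of binding.

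NK cells carried less of the family than noncycling CD8 T cells. Of 77 members 20 fell, where 15.4% of all genes did, and 0 rose, where 11.4% of all genes did. None was higher at an unadjusted p under 0.05 either, or with DESeq2, while 35 were lower at that unadjusted level. The share of all genes at the unadjusted level was not computed, so the 35 cannot be set against it. The median log2 fold change was -0.26, against -0.07 over all genes, and the cytosolic ribosomal genes fell alongside, 47 of 80. Mrps6 had 50.9 CPM in fusion, 47.3 in combination, 41.8 in IL15 superagonist, 50.5 in anti-PD1 and 36.9 in PBS in NK cells, against 65.5, 87.2, 75.8, 101 and 88.3 in noncycling CD8 T cells. The groups did not overlap, and the log2 fold change was -0.93 (SE 0.14, edgeR adjusted p = 6.76e-06). Mrps16 (-0.82), Mrpl45 (-0.81), which in human mitochondria helps anchor the ribosome at the inner membrane, and Mrpl54 (-0.71) fell in all 5 libraries. Tfam and Myc were higher in NK cells, by 0.73 and 1.57 on the log2 scale (edgeR adjusted p = 0.000392 and 9.48e-06). Without the library block 9 members fell, and with stricter gates 13.

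Between noncycling CD8 T cells and monocytes members moved both ways. Of 77 members 26 rose and 24 fell, where 38.6% of all genes rose and 32.9% fell, so neither share exceeded that of all genes, and the median log2 fold change was 0.08, against 0.13 over all genes. With DESeq2's size factors the split was 39 higher and 13 lower, and with stricter gates 19 higher and 28 lower, the median then being -0.012. Cytosolic ribosomal genes rose almost as 1 block, 77 of 80, with a median of 0.91. Mrpl44 rose by 1.54 (SE 0.18, edgeR adjusted p = 4.05e-09), Mrps6 by 1.52, Mrpl41 by 1.09 and Mrpl9 by 1.03, all in 5 of 5 libraries. Mrpl52, the most abundant member, had 230.2, 217, 253, 309 and 377 CPM in noncycling CD8 T cells, against 347, 359, 449, 413 and 561 in monocytes, in the order fusion, combination, IL15 superagonist, anti-PD1 and PBS. PBS was highest in both classes, and the log2 fold change was -0.81 (SE 0.10, edgeR adjusted p = 5.27e-09). Mrps18a fell by 0.87, Mrps18b by 0.69 and Mrps18c by 0.54, so all 3 copies were lower in CD8 T cells, and Mrpl14 and Mrpl39 fell by 0.71 and 0.69.

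Macrophages carried more of the family than monocytes. Of 77 members 34 rose, where 19.4% of all genes did, and 2 fell, where 16.9% did. The median log2 fold change was 0.26, against 0.04 over all genes. Among those named, Mrps36 is the member whose protein is no longer counted as a ribosome subunit. It had 127 CPM in fusion, 94.2 in combination, 110.1 in IL15 superagonist, 98.5 in anti-PD1 and 105 in PBS in macrophages, against 53.6, 52.0, 47.6, 60.3 and 61.5 in monocytes. The lowest macrophage value lay well above the highest monocyte value, with a log2 fold change of 0.85 (SE 0.10, edgeR adjusted p = 8.21e-08). Mrps2, a low-level gene, rose by 0.94, Mrpl13 by 0.82 and Mrpl12 by 0.79, all in 5 of 5 libraries. Mrpl33 had 214, 247, 237, 234 and 275 CPM in macrophages, against 288, 322, 345, 289.9 and 452 in monocytes, and fell by 0.57 on the log2 scale (edgeR adjusted p = 0.000247). Mrpl4 fell by 0.41 (edgeR adjusted p = 0.00263, and 0.114 without the library block). Import genes (15 of 28), respiratory chain genes (26 of 76) and the mitochondrial DNA-encoded mRNAs (7 of 13) rose as well, and C1qbp rose by 0.81. The count for the family was 16 with cells thinned to 2000 UMIs and 20 without the library block.

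Of the 77 members 46 rose in cycling CD8 T cells and 34 in macrophages, and 28 were in both lists. That is 60.9% of the first list and 82.4% of the second. Since most members are in the first list, many shared ones would be found without any link. The overlap over all genes was not computed, and the overlap itself was not tested.

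Mature dendritic cells had less of most members than cDC1, with a few clear exceptions. The comparison rests on 3 libraries, with 25, 40 and 116 mature cells in IL15 superagonist, anti-PD1 and PBS. Of 77 members 32 fell, where 19.0% of all genes did, and 7 rose, where 15.9% did. The median log2 fold change was -0.48, against -0.18 over all genes. Without the PBS library 18 members fell, and with thinned cells 17 fell and 3 rose. Mrps28 had 11.9 CPM in IL15 superagonist, 31.0 in anti-PD1 and 4.43 in PBS in mature cells, against 105, 76.7 and 83.8 in cDC1, a log2 fold change of -2.58 (SE 0.34, edgeR adjusted p = 2.71e-07). The mature cells of these libraries gave only 252288, 322734 and 676843 UMIs of all genes, so their Mrps28 values rest on few transcripts. Mrpl42 fell by 2.097, Mrps18b by 2.03 and Mrpl35 by 1.81, the last at adjusted p = 0.0611 without the PBS library. Mrpl14 (uL14m) had 246, 304 and 306 CPM in mature cells, against 102, 116 and 105 in cDC1, and rose by 1.47 (SE 0.14, edgeR adjusted p = 3.56e-10). Mrpl38 rose by 1.63, Mrps6 by 1.59 and Mrpl45 by 1.11, each in 3 of 3 libraries, Mrpl45 at adjusted p = 0.39 in thinned cells. C1qbp fell by 1.04, and Myc had a log2 fold change of -3.63 (edgeR adjusted p = 0.000949). Import genes fell in 16 of 28 cases and respiratory chain genes in 40 of 76.

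Neutrophils had few member transcripts at all. The 55 cells gave 400 member UMIs among 182365, and their summed level was 0.467 times that of monocytes in the same 2 libraries (95% interval 0.422 to 0.516, counting error only). Of 77 members 24 fell, where 10.1% of all genes did, and 1 rose, where 4.72% did. The fitted median was -1.67, against -1.31 over all genes, and -1.11 with the 14 members at 0 set to a floor of 3 UMIs over both libraries. That floor, 16.5 CPM, lies above members with 1 or 2 UMIs. It also exceeds the monocyte level of some members at 0, such as Mrpl53 (3.16 CPM), which then count as higher in neutrophils. The value of -1.11 therefore leans towards 0 and is no second estimate of the median. Mrpl15, at 0 of 182365 UMIs, was at least 3.49-fold lower than its 57.4 CPM in monocytes, and Mrpl11 at least 2.31-fold lower. Mrpl45 was the 1 member that rose, with 13 UMIs (71.3 CPM), against 19.3 CPM in monocytes. Mrpl33, at 82 UMIs, reached 450 CPM in neutrophils, against 304 CPM in monocytes. The count that fell was 5 with DESeq2 and 10 without either library.

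**Figure D4:**
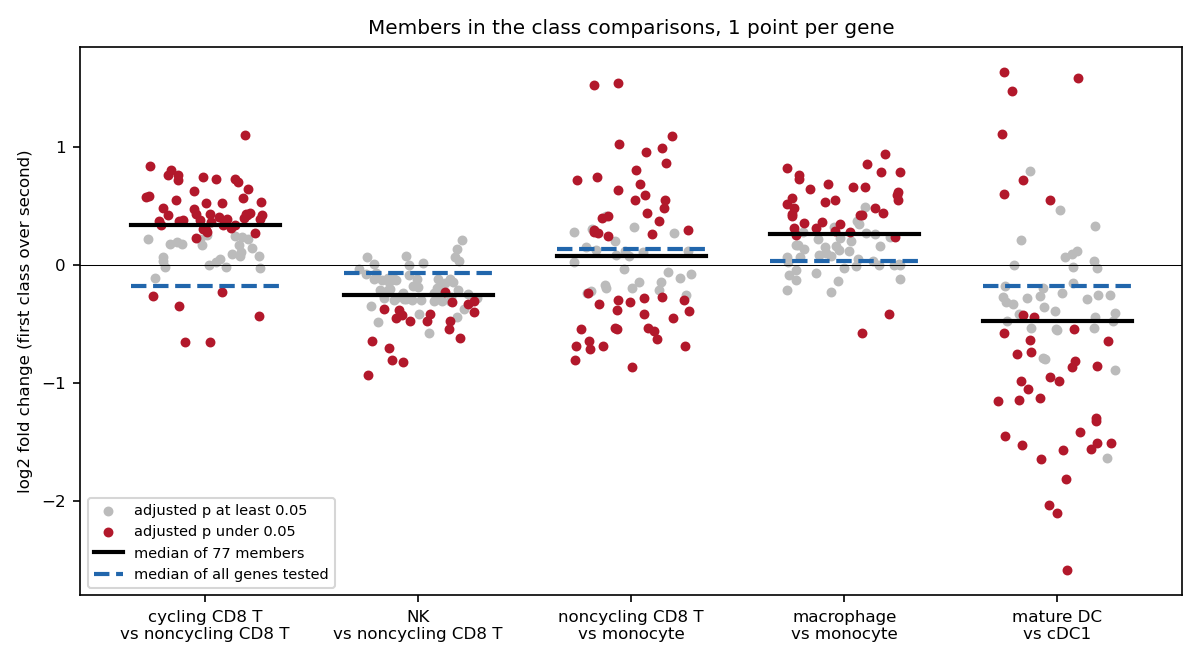
Log2 fold change (vertical axis, first class over second) of each of the 77 genes in 5 class comparisons, with red for adjusted p under 0.05. Black bars mark the members' median and dashed bars the median of all 11548 genes. Members lie above the genome-wide median in cycling CD8 T cells and macrophages (0.34 against -0.17, and 0.26 against 0.04) and below it in NK and mature dendritic cells.

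Between treatments each value rests on 1 library, so differences have no replicate check and no test; intervals cover counting error only, and a member is counted as past the fold at 1.5. In CD8 T cells as a whole the summed level was 6702 CPM in fusion, 5581 in combination, 5283 in IL15 superagonist and 6279 in anti-PD1, against 5680 CPM in PBS. Relative to PBS that is 1.18 times in fusion (95% interval 1.17 to 1.19), 0.983 in combination (0.971 to 0.995), 0.930 in IL15 superagonist (0.918 to 0.943) and 1.11 in anti-PD1 (1.09 to 1.12). The 2 libraries with the fused or free antibody but no free superagonist were above PBS, and the 2 with free superagonist below it. With TMM scaling or in noncycling cells alone the combination was above PBS, by 0.11 and 0.019 on the log2 scale. PBS cells also gave more cytosolic ribosomal and mitochondrial DNA-encoded UMIs, 319116 and 31302 CPM, against 275357 and 22400 CPM in fusion, and without those genes in the total the fusion value was 0.13 above PBS on the log2 scale instead of 0.24.

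In fusion 24 of 77 members were at least 1.5-fold above PBS and 1 below, where 16.6% of 10988 genes were above and 27.7% below. The median log2 ratio was 0.43 for the members and -0.12 for all genes. For anti-PD1 the counts were 3 above and 0 below, where 6.77% and 9.77% of all genes were. For IL15 superagonist they were 4 and 2, where 13.3% and 18.2% were, and for combination 2 and 1, where 10.9% and 17.4% were. The medians were 0.21, 0.02 and 0.11 in that order. These comparisons share the PBS library.

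Mrpl39, related to threonyl-tRNA synthetase, had 34.5 CPM in fusion, 26.6 in combination, 25.0 in IL15 superagonist and 24.9 in anti-PD1, against 14.9 in PBS, which is 2.32 times in fusion (1.88 to 2.91). All 4 treated libraries stood above PBS. Mrps18a had 67.8, 48.2, 44.6 and 50.9 CPM in the same libraries, against 35.1 in PBS, and Mrpl35 71.5, 44.8, 43.0 and 49.3 CPM, against 37.3 in PBS, 1.93 and 1.91 times in fusion. Mrps31 had 13.2, 13.4, 14.8 and 13.1 CPM, against 7.44 in PBS, so that its ratio was much alike in all treatments. Mrpl52 went the other way, with 215, 219, 262 and 292 CPM, against 356 in PBS, and its ratio in fusion was 0.605 (0.578 to 0.634). Mrps21 was 0.795 and Mrpl34 0.826 times PBS in fusion. With the superagonist alone Mrps33 and Mrpl34 were lowest, at 0.650 and 0.654 times PBS.

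Some members set the PBS library apart in each of 5 classes examined, which were noncycling CD8 T cells, NK cells, monocytes, macrophages and cDC1. In all of them Mrpl52 was higher in PBS than in each of the other libraries, and Mrpl4, Mrpl9, Mrpl39, Mrps7, Mrps11, Mrps16, Mrps18a and Mrps34 were lower. In fusion Mrpl14, Mrpl18 and Mrpl39 were higher than in each of the others in all 5 classes, and no member stood apart in that way in the other 3 libraries. That is 1.3% of members higher and 10.4% lower in PBS, where 6.18% and 4.78% of 9238 genes with at least 440 UMIs were, and 3.9% higher in fusion, where 1.24% were. In fusion 0% of members were lower, where 3.01% of genes were. In the other 3 libraries at most 0.433% of genes were higher and 0.141% lower, so the 0 members there are near the share of all genes. The smallest gaps to the next library ran from 0.016 to 0.26 on the log2 scale. A property of the whole library and an effect of its treatment cannot be told apart here.

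Fusion against combination sets the fused agents beside the free ones. The summed level in CD8 T cells was 6702 CPM in fusion and 5581 CPM in combination, a ratio of 1.20 (1.19 to 1.21), and 2 of 77 members were at least 1.5-fold higher and 0 lower, where 11.9% and 16.6% of all genes were. The ratio of sums differed with the state of the cells. In cycling CD8 T cells it was 7031 CPM in fusion and 7027 CPM in combination, a ratio of 1.00 (0.991 to 1.01) with a median over members of -0.01, and 0 of 77 were past 1.5-fold either way, where 6.69% of all genes were higher and 10.5% lower. In noncycling CD8 T cells it was 5583 CPM in fusion and 4958 CPM in combination, a ratio of 1.13 (1.11 to 1.14) with a median of 0.20, and 2 were higher and 0 lower, where 7.90% and 15.6% of all genes were. Cycling cells made up 62.0% of CD8 T cells in fusion (exact 95% interval 60.8 to 63.2), 12.6% in combination (11.4 to 13.8), 10.4% in IL15 superagonist (9.01 to 11.9) and 30.3% in anti-PD1 (27.5 to 33.1), against 27.8% in PBS (24.9 to 30.9). Since this call depends on depth, every CD8 T cell was also thinned to 2000 UMIs, and the share at the same limit was then 41.2% in fusion, 7.02% in combination, 5.35% in IL15 superagonist and 17.7% in anti-PD1, against 17.0% in PBS, which left out 26 shallower cells in PBS and 1 in IL15 superagonist. The order of fusion and combination was the same. Noncycling cells of fusion also had more UMIs per cell, a median of 5846 against 4636 in combination. Mrps27, an RNA-binding small-subunit protein, was 1.66 times combination in fusion (1.36 to 2.04), Mrpl35 1.59 and Mrps22 1.501, the last just short of the fold on the scale with 0.5 added to each count that the counts of members use, while Mrps6 was 0.837 and Mrps34 0.915. C1qbp was 1.48 times combination in fusion (1.43 to 1.55) and Tufm 0.945 (0.874 to 1.02).

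**Figure D5:**
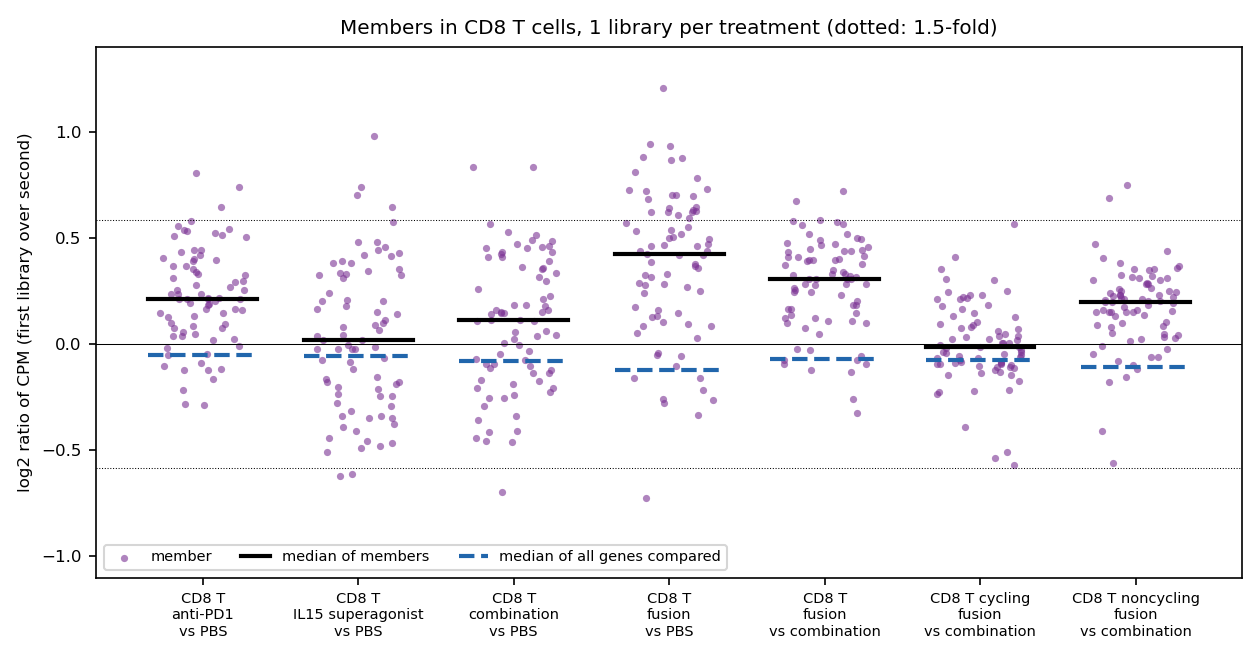
Log2 ratio of CPM (vertical axis) of each member with at least 50 UMIs between 2 libraries in CD8 T cells, with dotted lines at 1.5-fold. Black bars mark the members' median and dashed bars that of all genes compared. The members' median is 0.43 for fusion against PBS, 0.31 for fusion against combination, and -0.01 for fusion against combination within cycling cells.

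Against PBS, fusion was 1.08 times as high within cycling CD8 T cells (1.06 to 1.09), with 13 members higher and 2 lower, where 15.6% and 27.0% of all genes were. Within noncycling CD8 T cells it was 1.14 times as high (1.12 to 1.16), with 18 members higher and 1 lower, where 15.6% and 27.4% were. Set against anti-PD1 in place of PBS, fusion was 1.07 times as high in all CD8 T cells (1.06 to 1.08), with 2 members higher and 0 lower, where 9.93% and 18.6% were, and 1.02 times in noncycling ones (1.00 to 1.03). Fusion was also above PBS in NK cells, monocytes and macrophages. In NK cells the sum was 5302 CPM in fusion and 4083 CPM in PBS, a ratio of 1.299 (1.23 to 1.37), and 17 of 45 members with enough UMIs were at least 1.5-fold higher and 1 lower, where 26.5% and 20.3% of all genes were. In monocytes it was 5232 and 4696 CPM, a ratio of 1.11 (1.08 to 1.15), with 18 of 68 members higher and 2 lower, where 13.7% and 21.4% of all genes were. In macrophages it was 5820 and 5361 CPM, a ratio of 1.09 (1.06 to 1.11), with 2 of 76 higher and 1 lower, where 5.58% and 19.4% were. Anti-PD1 alone was 1.26 times PBS in NK cells (1.19 to 1.32), with 18 of 54 members higher and 0 lower, where 15.5% and 12.3% of all genes were.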

How the data were processed

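The deposited matrices hold raw UMI counts per gene and barcode, which the submitters' processing notes tie to Cell Ranger 2.1.1 and mm10. No source used here gives the barcode filter, the annotation release or how strand and shared reads were handled. Barcodes with at least 200 genes and at most 10% mitochondrial UMIs were gated into 12 classes by marker UMIs, and no doublet caller was run; gates that demand the absence of other classes' markers were the only guard. Counts were summed per class and library. Class comparisons used edgeR 4.0.16 (quasi-likelihood, TMM, R 4.3.3) over 8 classes with at least 20 cells per library, the library as a block because classes of 1 library were sorted and sequenced together, and Benjamini-Hochberg adjustment. DESeq2 1.42.0 was an alternative. Between treatments, ratios of counts carry exact conditional 95% intervals (scipy 1.17.1) for genes with at least 50 UMIs. The edgeR step was tested on simulated data. Named members are the 4 with the largest change each way among those called and alike in all libraries, the 3 highest and 3 lowest ratios between treatments, the most and least abundant, and a set always named (the S18 copies, the stalk, Mrps7, Mrps12 and Mrps36). Members and lists were chosen with earlier results of these data known. Anti-PD1 in place of PBS and the ZNF143 letters were added after seeing the data.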

Additional observations from a re-analysis of the deposited data

Results flagged for a closer look

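The summed level moved in opposite directions between classes under the same treatment in these cases, each from 1 library per treatment, so the difference was not tested. With IL15 superagonist against PBS it was 1.06 times as high in macrophages (95% interval 1.04 to 1.07), but 0.930 times in CD8 T cells (0.918 to 0.943) and 0.943 times in monocytes (0.918 to 0.969). With combination against PBS it was 1.09 times as high in NK cells (1.04 to 1.15) and 1.02 times in macrophages (1.00 to 1.03), but 0.983 times in CD8 T cells (0.971 to 0.995). Without cytosolic ribosomal and mitochondrial genes in the total, combination was 0.925 times PBS in NK cells, the other direction, 1.003 in macrophages and 0.920 in CD8 T cells, while IL15 superagonist kept its directions at 1.05, 0.881 and 0.920 in macrophages, CD8 T cells and monocytes. The intervals cover counting error only.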

How the results depend on the processing

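Of 467 refits of 39 named results, each 1 member in 1 class comparison, 434 kept direction and call, 33 lost the call and 0 reversed. These results had been picked from the same data as large, called and alike in all libraries, which favours such stability. Without the library block, 3 members fell in cycling CD8 T cells, 9 fell in NK cells, and 20 rose and 1 fell in macrophages. With DESeq2's size factors in edgeR, 3 fell in cycling cells, 13 in noncycling CD8 T cells against monocytes, and 2 rose and 10 fell in neutrophils. The median of all genes moved by 0.14, 0.23 and 0.37 in these comparisons and by 0.11 in macrophages. DESeq2 gave 15 lower in noncycling CD8 T cells against monocytes, and 2 higher and 5 lower in neutrophils. With the 2 classes alone in edgeR, 0 rose and 5 fell in neutrophils. Thinned cells gave 14 lower in CD8 T cells against monocytes, 16 higher in macrophages, and 3 higher and 17 lower in mature dendritic cells. Stricter gates gave 13 lower in NK cells, and a median of -0.012 for CD8 T cells against monocytes. Leaving out 1 library gave 32 to 50 higher and 3 to 5 lower in cycling cells (3 without IL15 superagonist), 0 higher and 14 to 21 lower in NK cells, 23 to 31 higher and 16 to 28 lower in CD8 T cells against monocytes (median -0.014 to 0.16, the lowest without fusion), 23 to 31 higher and 2 to 3 lower in macrophages, 5 to 7 higher and 18 to 34 lower in mature dendritic cells, and 0 to 1 higher and 10 to 28 lower in neutrophils. The causes were not tested.

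Log2 ratios of the sum in CD8 T cells were 0.24 for fusion, -0.03 for combination, -0.10 for IL15 superagonist and 0.14 for anti-PD1 against PBS, and 0.26 for fusion against combination. Without cytosolic ribosomal and mitochondrial genes in the total they were 0.13, -0.12, -0.18, 0.061 and 0.25, with 0.21 in NK cells and 0.094 in monocytes for fusion against PBS. TMM scaling gave 0.46, 0.11, -0.021, 0.21 and 0.37, with 0.24 in macrophages. Noncycling cells alone gave 0.19, 0.019, -0.066, 0.16 and 0.17. With every cell weighing the same, fusion was 0.32, anti-PD1 0.17, fusion against combination 0.35 and NK cells 0.27. Thinned cells gave 0.31 for fusion, 0.34 for fusion against combination and 0.18 in NK cells, and stricter gates 0.22 for fusion. Against anti-PD1 in place of PBS, fusion was 0.094, combination -0.17 and IL15 superagonist -0.25, and fusion was 0.0485 in NK cells and 0.0483 in macrophages. No cause was tested. Depth limits the smallest class, with 55 neutrophils and 400 member UMIs in IL15 superagonist and anti-PD1, the libraries compared.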
